A study of Mus musculus with 4 samples.

Results

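The cytosolic ribosomal protein genes (RP genes) were taken as every gene symbol made of Rps or Rpl, a number and at most 1 further letter, plus Rplp0, Rplp1, Rplp2 and Rpsa. This rule gave 79 of the 20719 gene symbols in the files, 31 of the small and 48 of the large subunit, and all 79 were listed in every library. The samples were cells from the heads of E10.5 mouse embryos, labelled as embryonic brain, that were kept in preservation solution overnight, dissociated, sorted to remove dead cells and sequenced as single cells. Of the 4 libraries, 2 were labelled Apcdd1+/- (1 allele of Apcdd1, an inhibitor of Wnt signalling, disrupted) and 2 were labelled WT, and strain, embryo number and pooling were not given in the sources used here. Cells were not labelled by type, so they were assigned to classes by marker genes, none of them an RP gene.

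Each ribosome holds 1 copy of almost every RP, together with the ribosomal RNAs. RP mRNAs are among the most abundant in dividing cells, and most begin with a run of pyrimidines (the TOP motif) through which mTOR signalling and the protein LARP1 control their translation together. Ribosomes are assembled in the nucleolus by a separate set of biogenesis factors that make, modify and fold ribosomal RNA. In the embryonic neural tube, progenitors divide and give rise to neuroblasts, which leave the cell cycle and become neurons, and mutations in several RP genes disturb development of selected tissues in mice.

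The bases around the start of transcription are shown for the 6 RP genes at the ends of the range of the neuron comparison described below, since this is where a TOP motif would stand. Each run covers 10 bases before to 20 bases after a start annotated by RefSeq (GRCm38.p6), 5′ to 3′, and capitals mark 3 short motifs on the sense strand that can overlap each other. The motifs are CTTTC as a core TOP-like run, its variant CTTTT and the variant CTTCC.
Rps2: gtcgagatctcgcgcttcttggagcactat
Rps27l, upstream start: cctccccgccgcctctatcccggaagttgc
Rps27l, downstream start: gggcttcagggtcactaacgggcctcgcag
Rpl12: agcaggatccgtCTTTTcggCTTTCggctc
Rps28: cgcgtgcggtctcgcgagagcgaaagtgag
Rpl13a: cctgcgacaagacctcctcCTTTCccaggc
Rpl10: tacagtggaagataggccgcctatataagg
The windows lie at chr17:24720053-24720082 (+) for Rps2, chr9:66946076-66946105 and chr9:66946403-66946432 (+) for Rps27l, and chr2:32961702-32961731 (+) for Rpl12. They lie at chr17:33824543-33824572 (-) for Rps28, chr7:45128726-45128755 (-) for Rpl13a and chrX:74270806-74270835 (+) for Rpl10. Among the 3 genes that fell most and the 3 that fell least, 1 of each trio had such a match in this window. RefSeq promoters were matched for 59 of the 79 RP genes, 57 of them among the 77 expressed genes described below. From 10 bases before to 20 bases after a start, 24 of the 59 had at least 1 of the 3 motifs. In this narrow window CTTTC occurred in 24.6% of the 57 genes, 3.82% of the other genes tested across classes and 3.74% of all promoters. For CTTTT these shares were 8.77%, 3.09% and 3.10%, and for CTTCC 21.1%, 9.54% and 6.36%. Within 50 bases on either side of an annotated start, CTTTC occurred on the sense strand in 54.4% of these 57 genes, against 11.8% of the 9885 other genes tested across classes and 12.8% of all 32851 promoters in the table. For CTTTT the shares were 24.6%, 9.88% and 11.1%, and for CTTCC they were 47.4%, 25.1% and 19.5%. CCGGAAG, searched on both strands over the whole 300 bases from 250 before to 50 after the start, occurred in 42.1% of the 57 genes, 19.8% of the other tested genes and 8.86% of all promoters. These matches describe letters and show no binding.

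The 4 libraries held 3122 to 9735 barcodes and 55393605 to 96822641 UMIs (unique molecular identifiers, 1 per captured RNA molecule), with a median of 8686 to 16260 UMIs per barcode. Of all 25074 barcodes, 24259 passed the filter of at least 500 genes and under 10% mitochondrial UMIs. Bead barcodes were listed for only 3994 cells of Apcdd1+/- replicate 1, and of the 25065 bead sequences listed over all libraries 100 occurred in more than 1. Apcdd1 itself stood at 77.4 and 49.5 CPM (UMIs scaled to an equal total per library or class) in the libraries labelled Apcdd1+/- and at 63.4 and 60.8 in those labelled WT, so the groups overlapped and the RNA level did not separate the labels. Which part of the gene is disrupted is not given in the labels, so these counts may include RNA from the disrupted allele. Of the kept cells, 17108 entered a class. Among the 10 genes highest by fold in each class tested, 4 to 8 were its own markers. Examples were Sox3, Pax6 and Sox2 in neural progenitor-like, Neurog1, Dll1 and Hes6 in neuroblast-like and Nefl, Stmn2 and Tubb3 in neuron-like cells. The classes were drawn by these same markers, so this describes the gate and is no independent check of it. Sst, a marker of the sensory ganglion neuron class, was also among the 10 in neuron-like cells. Haemoglobin, a measure of free RNA from red cells, was 37.2 to 41.7% of UMIs in erythroid-like cells and at most 0.01% in the 5 classes that were tested.

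RP genes supplied 20.2% of all UMIs in neural progenitor-like cells and 13.03% in neuron-like cells. In progenitor-like cells (10688 cells) the share was 20.2% and 20.4% in the 2 Apcdd1+/- libraries and 20.9% and 19.3% in the 2 WT libraries, 20.2% ± 0.66 (SD, n = 4 libraries). In neuron-like cells (896 cells) it was 14.2%, 12.6%, 13.4% and 11.9% in the same order, 13.03% ± 1.00. All 4 neuron values lay below all 4 progenitor values. Neuroblast-like cells (1270 cells), the intermediate stage, stayed near progenitors at 19.9%, 19.6%, 20.5% and 18.6%, 19.7% ± 0.78. Mesenchyme-like cells (2543 cells) stood at 20.8%, 20.8%, 22.4% and 20.3%, 21.1% ± 0.93, and epithelium-like cells (833 cells) at 19.3%, 19.1%, 20.4% and 19.3%, 19.5% ± 0.59. The progenitor, neuroblast, mesenchyme and epithelium values overlapped one another across libraries, and WT replicate 1 was the highest library in each of these 4 classes. Within each library taken alone, the mesenchyme share was above the progenitor share, and the neuroblast and epithelium shares were below it. The epithelium gap was narrow in WT replicate 2 (19.25% against 19.28%). These shares were not tested.

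**Figure D1:**
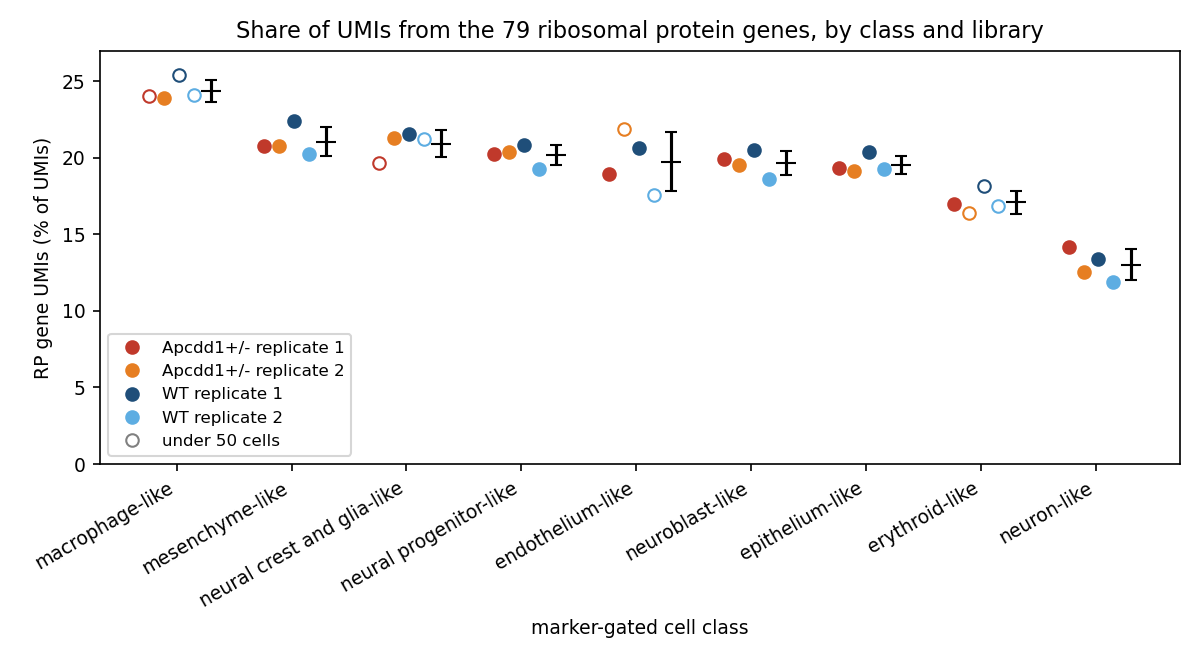
RP gene UMIs as a percentage of all UMIs (y axis) in each marker-gated class (x axis). Each circle is 1 library, open where it had under 50 cells of the class, and bars give the mean ± SD over the 4 libraries; neuron-like cells sit at 11.9 to 14.2% and macrophage-like cells at 23.9 to 25.4%.

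Counted per cell, RP UMIs were lower in neuron-like cells by a wider margin than the UMIs of all other genes. Neuron-like cells held a mean of 1253, 1192, 1471 and 2000 RP UMIs in the 4 libraries, against 2091, 2188, 2718 and 3610 in progenitor-like cells. UMIs from all other genes came to 7562, 8291, 9489 and 14787 per neuron-like cell and 8248, 8548, 10318 and 15111 per progenitor-like cell. Among cells of 5000 to 15000 UMIs only, a window set after the data were seen, the RP share was 14.7%, 12.9%, 13.97% and 13.2% in neuron-like and 20.3%, 20.4%, 20.5% and 18.9% in progenitor-like cells. With progenitor-like cells of each library divided by depth into 3 equal parts, the share went, from the shallowest to the deepest, from 19.4% to 20.4% and from 19.7% to 20.6% in the Apcdd1+/- libraries, and from 19.3% to 21.3% and from 18.6% to 19.4% in the WT libraries. In neuron-like cells the deepest part had the lowest share in every library, for example 10.9% against 13.7% in the shallowest part of WT replicate 2. The gate for neurons took cells with many neuronal transcripts (their own markers were 2.10 to 2.87% of UMIs). Classes drawn from clusters of cells gave a neuron share of 16.1% in place of 13.03%, with all 77 RP genes of the test described next again lower, at a median of -0.37 (35.4% of all genes called lower and 35.2% higher).

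Each gene was then set against progenitor-like cells within libraries, on UMIs summed per class and library (edgeR quasi-likelihood test, Benjamini-Hochberg adjustment over 12584 genes). Of the 79 RP genes, 77 passed the filter on low counts. The other 2 were Rpl3l and Rpl39l, paralogs of Rpl3 and Rpl39 known from muscle and testis, with 123 and 128 UMIs over all kept cells of all libraries. In neuron-like cells all 77 tested RP genes fell and none rose, while 35.1% of all tested genes were called lower and 39.1% higher. Their median log2 difference was -0.64, against 0.05 for all genes tested, and within each of the 4 libraries taken alone all 77 were below progenitor-like cells. The fall was uneven, from -1.46 to -0.32. The order of the 77 genes was similar from library to library, with Spearman correlations of 0.95 to 0.96 between the 6 pairs of libraries, each compared with its own progenitor-like cells (77 genes, which are not independent).

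Rps2, a small-subunit protein near the mRNA entry site, fell most. Its level was 5021, 3314, 4534 and 3640 CPM in progenitor-like cells (Apcdd1+/- replicates 1 and 2, then WT replicates 1 and 2) and 2173, 1139, 1674 and 1260 in neuron-like cells, a log2 difference of -1.46 (SE 0.05, adjusted p = 6.42e-24 by edgeR). The groups did not overlap, and every library showed the fall. Rps27l, the paralog of Rps27 and a known p53 target, went from 800, 744, 697 and 761 to 360, 264, 302 and 297 CPM (-1.33, SE 0.05). Rpl12, which anchors the base of the ribosomal stalk, went from 2456, 2177, 2239 and 2034 to 1274, 917, 1047 and 843 (-1.17, SE 0.05). Neither gene's groups overlapped. At the other end, Rpl10, which joins the large subunit last in the cytoplasm, stood at 762, 669, 1007 and 874 CPM in progenitor-like cells and at 646, 520, 835 and 739 in neuron-like cells (-0.32, SE 0.04, adjusted p = 5.93e-09 by edgeR). Here the groups overlapped because libraries differed, while each library alone showed a lower neuron value. Rpl13a, also a part of the GAIT translation-silencing complex, and Rps28, a small-subunit protein at the mRNA exit, fell by 0.32 and 0.36 on the log2 scale.

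The stalk proteins, which recruit the translation factors that hydrolyse GTP, did not fall equally. Rplp1 went from 4387, 4161, 4102 and 3939 CPM to 2536, 2102, 2122 and 1820 in neuron-like cells (-0.996, SE 0.05), whereas Rplp0 and Rplp2 both fell by 0.68. Rpsa, a small-subunit protein also known as the laminin receptor precursor, fell by 0.95 (SE 0.05). Rpl5 and Rpl11, which carry 5S ribosomal RNA and bind Mdm2 when assembly stalls, fell by 0.63 and 0.74. Rps6, the target of S6 kinase, fell by 0.61, and Rps19, mutated in Diamond-Blackfan anaemia, by 0.63. Rpl38 and Rpl24, whose mouse mutants Tail short and Belly spot and tail have skeletal and neural defects, fell by 0.69 and 0.58. Rpl3, Rps4x and Rpl39 fell by 0.89, 0.57 and 0.58. Rplp1, Rpsa and Rpl3 lay further below the median of -0.64, while the other values lie around it. None of these genes departed from the median by as much as Rps2 did. Across the 77 genes the neuron difference had a Spearman correlation of -0.11 with coding length.

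**Figure D2:**
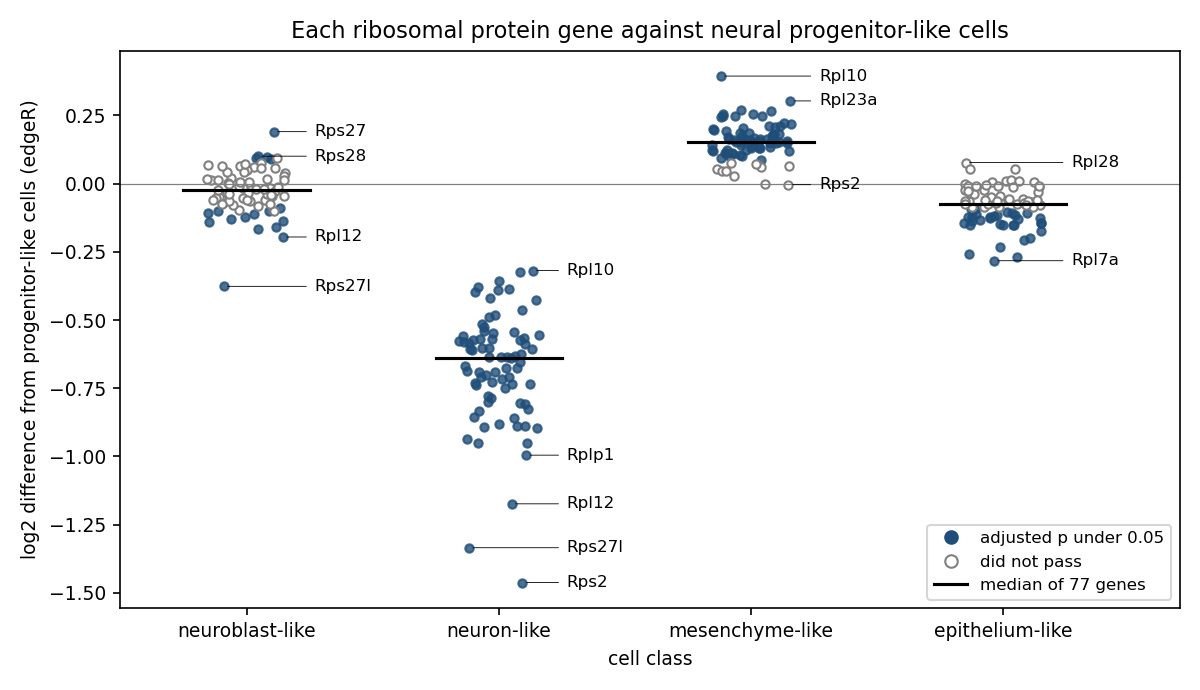
log2 difference of each of the 77 tested RP genes from neural progenitor-like cells (y axis, edgeR), by class (x axis). Filled points passed an adjusted p of 0.05, open points did not, and the line is the median; all 77 points are below 0 in neuron-like cells, with Rps2 at -1.46 and Rpl10 at -0.32.

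At the neuroblast stage most RP genes did not pass the test, while the genes that build ribosomes had already fallen. Of the 77 RP genes 13 fell and 5 rose, with a median log2 difference of -0.02. Of all tested genes 25.4% were called lower and 25.2% higher, so these counts were under the background. Rps27l fell by 0.38 (SE 0.04, adjusted p = 6.63e-09 by edgeR), from the progenitor values above to 611, 561, 534 and 579 CPM, and the groups did not overlap. Its paralog Rps27 was among the 5 that rose, by 0.19 (SE 0.04), to 2075, 2549, 2491 and 2439 from 1891, 2332, 2152 and 2106. Rpl12 and Rpl7a, the latter a large-subunit protein, fell by 0.20 and 0.17, and Rps28 rose by 0.10. Of 35 ribosome biogenesis genes, 33 fell and 1 rose, with a median of -0.52. Ncl, which encodes the nucleolar protein nucleolin, went from 2428, 2749, 2244 and 2561 CPM in progenitor-like to 1437, 1450, 1347 and 1474 in neuroblast-like cells (-0.78, SE 0.05), and Nop58, a core protein of the box C/D particles that methylate ribosomal RNA, fell by 0.65. With classes drawn from clusters, 63 RP genes fell and none rose at this stage, with a median of -0.15 (24.8% of all genes called lower and 23.9% higher), and 32 of the 35 biogenesis genes fell, with a median of -0.78. The count of RP genes that changed in neuroblast-like cells depended on how the cells were drawn, whereas the biogenesis list fell with both.

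In neuron-like cells 33 of the 35 biogenesis genes were again lower and 1 higher, with a median of -1.29. The counts of this and the next lists stand beside 35.1% of all genes called lower and 39.1% higher, with a median of 0.05. Ncl stood at 788, 829, 782 and 636 CPM (-1.75) and Nop58 fell by 1.91. The exception was Rrn3, an initiation factor for RNA polymerase I, which rose by 1.11 (SE 0.07). Of 20 translation factors and other genes with TOP mRNAs, 18 fell and none rose (median -0.60). Eef1a1, which delivers aminoacyl-tRNA, fell by 0.35 and Npm1, a nucleolar chaperone, by 1.79, while Eef2, which moves the ribosome along, did not pass (0.03, SE 0.04). At the neuroblast stage 5 of the 20 fell and 7 rose (median -0.03), or 12 fell and 3 rose with cluster classes. All 7 RP or RP-like genes that the symbol rule misses fell in neuron-like cells, among them Fau (0.39) and Rack1 (0.64). Of 77 tested mitochondrial RP genes, whose products form the separate ribosome of mitochondria, 61 fell and 3 rose (median -0.46). Mrpl12 fell by 0.96 and Mrps21 did not pass (0.05, SE 0.04). Among 14 genes that regulate growth and RP synthesis 7 fell and 4 rose, so the number that rose was under that background, with Eif4ebp2, an inhibitor of cap-dependent translation, lower by 0.52 and Rps6kb1, an S6 kinase, lower by 0.28. Among 12 p53 targets 7 rose and 3 fell (39.1% and 35.1% of all genes), with Bax up by 0.35 and Aen down by 0.81. Rps27l, itself a p53 target, fell.

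**Figure D3:**
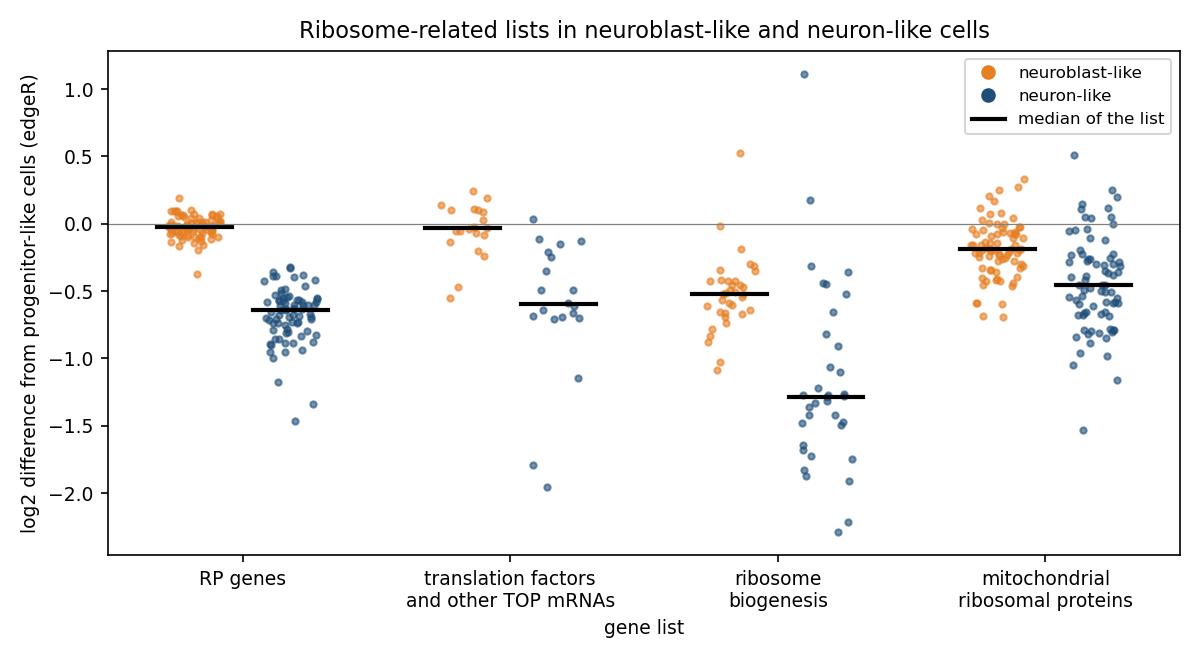
log2 difference from neural progenitor-like cells (y axis, edgeR) of each gene of 4 ribosome-related lists (x axis) in neuroblast-like (orange) and neuron-like cells (blue), with the median as a line. RP genes are centred near 0 at the neuroblast stage (median -0.02) and biogenesis genes at -0.52.

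Paralogs changed their balance between classes. Of the UMIs of Rps27 and Rps27l together, Rps27l supplied 29.7%, 24.2%, 24.5% and 26.6% in progenitor-like cells, 22.8%, 18.04%, 17.7% and 19.2% in neuroblast-like cells and 18.6%, 13.2%, 15.3% and 15.1% in neuron-like cells. The neuron and progenitor values did not overlap, and mesenchyme-like cells had the highest mean (29.8% ± 3.15, SD, n = 4). Rpl7l1, a nucleolar relative of Rpl7, supplied 10.6% ± 0.99 of the UMIs of that pair in progenitor-like cells, 5.87% ± 0.35 in neuroblast-like cells and 5.95% ± 0.07 in neuron-like cells. For Rpl22 and Rpl22l1, where the paralog gave 24.4% ± 4.21 in progenitor-like and 19.4% ± 4.68 in neuron-like cells, the libraries overlapped, while the share was lower in neuron-like cells within each of the 4 libraries. Rpl36al, the relative of Rpl36a, gave 33.4% ± 1.35 in progenitor-like, 28.1% ± 0.60 in neuroblast-like and 35.9% ± 2.48 in neuron-like cells, and its neuroblast values lay below all progenitor values. Its neuron and progenitor values overlapped. Within libraries the neuron share was lower in Apcdd1+/- replicate 1 (33.2% against 33.4%) and higher in the others. These shares were not tested. Rpl10l and Rps4l, paralogs of Rpl10 and Rps4x, fit the symbol rule but were not among the 79 symbols it gave, so no library listed them.

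Mesenchyme-like cells, the loose connective tissue of the head, had slightly higher levels of most RP genes. Of the 77 tested, 67 rose and none fell, with a median log2 difference of 0.15, against 28.9% of all genes called higher and 29.2% called lower. Rpl10 rose most, by 0.39 (SE 0.03, adjusted p = 9.40e-12 by edgeR), from 762, 669, 1007 and 874 CPM in progenitor-like to 911, 810, 1270 and 1107 in mesenchyme-like cells. Libraries overlapped, and each library alone showed the rise. Rpl23a, at the exit of the peptide tunnel, rose by 0.30 and Rpl28, a large-subunit protein, by 0.27, and the smallest rises called were those of Rpl5, Rps7 and Rpl14 at 0.09 to 0.10. The size of this difference depended on the scaling: with library totals in place of TMM factors, 25 RP genes rose and 2 fell, the median was 0.06 and the median of all genes was -0.11, with 21.8% of all genes called higher and 37.7% lower. Within single libraries 52 to 71 of the 77 genes were above progenitor-like cells on the scale of CPM. Mesenchyme-like cells were also deeper, with a median of 12468 to 22393 UMIs per cell against 9431 to 17717 in progenitor-like cells. Among cells of 5000 to 15000 UMIs the share was 20.7%, 20.4%, 20.9% and 18.4% in mesenchyme-like and 20.3%, 20.4%, 20.5% and 18.9% in progenitor-like cells. At this like depth mesenchyme-like cells were lower in WT replicate 2, and the part of depth in the gene counts was not tested.

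Epithelium-like cells, marked by Epcam and keratins, had 32 RP genes lower and none higher, with a median of -0.07, where 27.3% of all genes were called lower and 26.5% higher. Rpl7a fell by 0.28 (SE 0.04, adjusted p = 2.60e-07 by edgeR), from 1593, 1145, 1522 and 1159 CPM to 1349, 935, 1279 and 1007. Rps2 fell by 0.27 and Rplp1 by 0.26, and the smallest falls called were those of Rps4x, Rpl24 and Rpl30 at 0.09 to 0.10. Within single libraries 63 and 70 of the 77 genes were below progenitor-like cells in the Apcdd1+/- libraries, and 47 and 40 in the WT libraries, on the scale of CPM. The count of genes called lower was 14 without Apcdd1+/- replicate 2, 19 with a stricter gate and 59 without the filter on low counts.

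Other classes had under 50 cells in at least 1 library and were not tested, and those with under 50 cells in all (megakaryocyte-, sensory ganglion neuron- and skeletal muscle-like) are not described. Macrophage-like cells (180 cells, 26 to 78 per library) had the highest share described, 24.1%, 23.9%, 25.4% and 24.1%, above every value of progenitor-like cells. Erythroid-like cells (154 cells), marked by globins, stood at 16.97%, 16.4%, 18.1% and 16.9%, below every value of progenitor-like cells. Globins were 37.2%, 40.2%, 38.7% and 41.7% of their UMIs, so this share cannot be read as a low RP level among their other genes. Per cell they held 2451, 3015, 4141 and 4947 RP UMIs, more than progenitor-like cells in every library. They also held more UMIs in all. The share out of their UMIs without globins is not reported here. Endothelium-like cells (228 cells) varied most, from 17.6% to 21.9%, with 13 and 19 cells in 2 of the libraries. Neural crest and glia-like cells (246 cells) stood at 19.6 to 21.5%.

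Among progenitor-like cells, RP gene levels differed between regions of the neural tube. Cells were placed in a region by at least 2 UMIs of its regulators (Emx1 and Emx2 among those of the telencephalon, En1 and Pax5 of the midbrain, Shh and Foxa2 of the floor plate) and none of the other regions. The share was 21.0%, 21.5%, 21.9% and 20.4% in the telencephalon group (1767 cells), 20.2%, 20.2%, 20.7% and 19.1% in the midbrain group (1208 cells) and 18.9%, 18.5%, 19.2% and 18.2% in the floor plate group (589 cells). Telencephalon was the highest and floor plate the lowest in each of the 4 libraries, and the values of these 2 groups did not overlap. The hindbrain group had 61 cells, with 1 in Apcdd1+/- replicate 1, and was not tested. Median depth was 9427 to 16413 UMIs per cell in the telencephalon group, 10960 to 17981 in the midbrain group and 8828 to 16381 in the floor plate group, and its part in the differences was not tested.

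**Figure D4:**
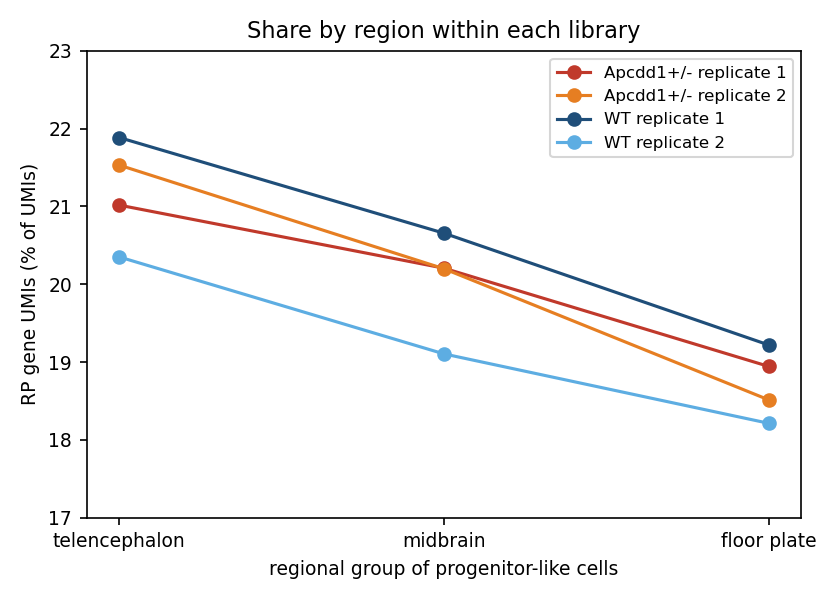
RP gene UMIs as a percentage of all UMIs (y axis, starting at 17%) in 3 regional groups of progenitor-like cells (x axis), with 1 line per library. All 4 lines fall from telencephalon (20.4 to 21.9%) to floor plate (18.2 to 19.2%).

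Each group was tested against the mean of the other 2 (edgeR, 10966 genes), so the 3 comparisons are not independent of one another. All 77 tested RP genes were higher in the telencephalon group (median 0.18), where 13.1% of all genes were called higher and 12.0% lower. All 77 were lower in the floor plate group (median -0.21), where 9.79% of all genes were called lower and 9.67% higher. With library totals 73 were higher in the telencephalon and 74 lower in the floor plate, while genes of any kind were split 914 higher to 1884 lower and 1582 higher to 611 lower. In the midbrain group 5 RP genes rose and none fell (6.58% of all genes called higher and 5.62% lower), and leaving out WT replicate 2 raised this count to 20. Rplp1, one of the stalk proteins, differed most: 4718, 4571, 4483 and 4355 CPM in the telencephalon group, 4318, 4009, 3976 and 3872 in the midbrain group and 3705, 3331, 3438 and 3418 in the floor plate group. Its log2 difference was 0.34 (SE 0.02) for the telencephalon and -0.38 (SE 0.02) for the floor plate, and floor plate values lay below all others. Rpl41, a very short peptide of the large subunit, and Rps27l followed in the telencephalon at 0.31 and 0.30, while Rps27, Rps13 and Rps6 had the smallest rises at 0.09, 0.11 and 0.11. In the floor plate Rpl12 (-0.31) and Rpl7 (-0.29) came after Rplp1, and Rpl13a, Rpl10 and Rps27 fell least, by 0.11, 0.11 and 0.13. The midbrain rises included those of Rpl4, Rps6, Rps4x and Rps2, at 0.08, 0.08, 0.07 and 0.06. Of the other lists, 13 of 35 biogenesis genes, 15 of 20 translation factors and other TOP genes and 29 of 77 mitochondrial RP genes rose in the telencephalon group, and 0, 0 and 1 fell. In the floor plate group 13, 13 and 23 fell, and 0, 0 and 1 rose.

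The study's own comparison, between genotypes, gave no RP gene past the threshold. Over all cells the RP share was 20.2% and 20.2% in the libraries labelled Apcdd1+/- and 21.1% and 19.2% in those labelled WT, a difference of means of 0.09 percentage points where the SD between replicates was 0.93. With 2 libraries against 2 an exact two-sided permutation test cannot give a p under 0.333. By edgeR, 0 of 79 RP genes were called (0 with an unadjusted p under 0.05), where 0% of 15966 genes were called and 188 had an unadjusted p under 0.05. DESeq2 called 0 RP genes and 3 genes in all. The fitted log2 difference, Apcdd1+/- minus WT, had a median of 0.05 over the RP genes with 48 above 0 and 31 below. The sign followed the libraries used: the median was -0.11 without WT replicate 2 and 0.18 without WT replicate 1. Rpl10 had the lowest value, -0.40 (SE 0.19), and Rpl39l, with few UMIs, the highest, 0.80 (SE 0.72). In the 5 classes 0 of the 77 or 78 tested RP genes were called by edgeR or DESeq2, again with 0% of all genes called by edgeR, and 0 to 5 RP genes had an unadjusted p under 0.05, the 5 in epithelium-like cells. The difference in share ran from -0.60 points in epithelium-like cells (SD between replicates 0.59) to 0.72 points in neuron-like cells (1.11), and the genotypes' values overlapped in all cells and in each of the 5 classes.

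Libraries of the same genotype differed in which RP genes made up the total. In progenitor-like cells Rpl9 was 0.92% of RP UMIs in Apcdd1+/- replicate 1 and 0.46% in Apcdd1+/- replicate 2, a 1.98-fold gap, against 0.79% and 0.63% in the WT libraries. Rpl35 went the other way, with 0.52% and 0.88% in the Apcdd1+/- and 0.97% and 0.85% in the WT libraries. Between the 2 WT libraries the widest gap was 1.26-fold, for Rps4x. The SD of the 77 genes' log2 deviations from the mean of the 4 libraries was 0.16 and 0.15 in the Apcdd1+/- and 0.09 and 0.09 in the WT libraries. The deviations followed the length of the coding sequence (longest GENCODE vM21 coding transcript), with Spearman correlations across the 77 genes of 0.48 and -0.65 in the Apcdd1+/- and 0.44 and -0.26 in the WT libraries. Each gene's deviations are taken from the mean of the same 4 libraries. The 4 correlations are therefore not independent, and opposite signs among them are partly built in. The 27 shortest genes (138 to 405 bases) made up 33.3% and 37.2% of RP UMIs in the Apcdd1+/- and 34.5% and 35.9% in the WT libraries, and the 26 longest (576 to 1257 bases) 33.3% and 28.9%, then 33.0% and 31.5%. The same deviations were found in the other 4 tested classes of each library, with Spearman correlations to the progenitor profile of 0.93 to 0.99. The part of this library profile in the genotype values was not tested. The pseudogene symbol Rpl9-ps6, to which reads of Rpl9 can be assigned, stood at 156 and 68.1 CPM in the Apcdd1+/- and 130 and 150 in the WT libraries, so counts of Rpl9 are uncertain to that extent. The same holds for Rpl10, whose mean over all cells was 864 CPM. Rpl10-ps3 stood at 139 and 89.1 CPM in the Apcdd1+/- and 114 and 209 in the WT libraries. Rpl36a-ps1 and Rps18-ps5 stood at 54.2 to 113 and 93.9 to 178 CPM. The part of pseudogene counts in the class, region and genotype values of these genes was not tested.

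**Figure D5:**
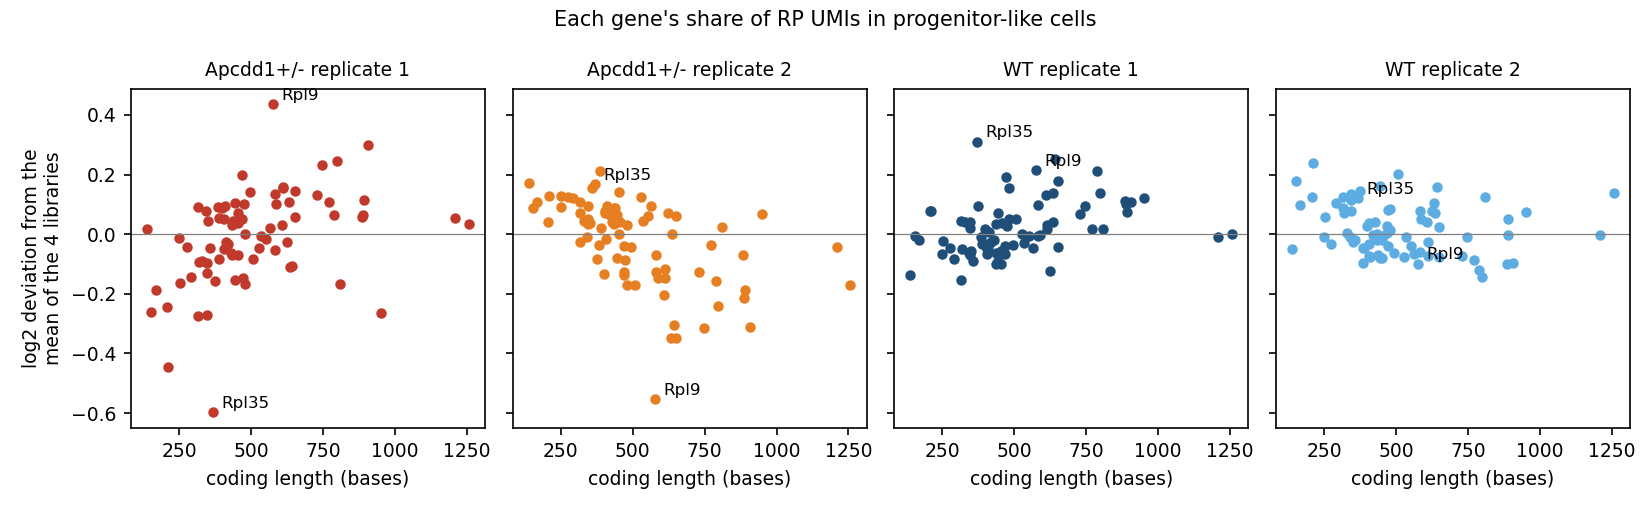
log2 deviation of each RP gene's share of RP UMIs from the mean of the 4 libraries (y axis) against coding length in bases (x axis) in progenitor-like cells, with 1 panel per library and 1 point for each of 77 genes. Longer genes lie higher in Apcdd1+/- replicate 1 (Spearman 0.48) and lower in Apcdd1+/- replicate 2 (-0.65). The panels share 1 mean, so they are not independent of one another.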

How the data were processed

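The deposited matrices hold counts of UMIs per gene and cell, made by the authors with PISA 0.12 per the file headers; the submitters' processing notes also name Scanpy 1.9.1 and mm10, and no source used here names the aligner. A gene missing from a library counted as 0. Cells with at least 500 genes and under 10% mitochondrial UMIs were kept. A cell entered a class when its mean marker z-score reached 0.75 and led the next class by 0.5. Progenitor-like cells needed an own score above 0 and all other scores under 0.5, and 2274 of 10688 lay within 0.1 of that limit. These limits were set after the score distributions were seen. No doublet caller was run: cells with 2 classes within the margin stayed out, and other doublets may remain. Libraries are not said to come from separate litters or embryos. Between genotypes, p-values therefore measure the spread between libraries, which may be technical. For classes and regions library was a block, so each library's own level was removed. Those p-values measure how far the difference between classes or regions varied from library to library, which may also be technical.

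UMIs were summed per class and library where every library had 50 cells, filtered with filterByExpr and tested with edgeR 4.0.16 (TMM, quasi-likelihood, Benjamini-Hochberg, 0.05), with library as a block for classes and regions. SE was derived from each log2 difference and its F value. The fits were also run on simulated counts, which had no class or library differences apart from the changes put in. A minimum recovery of changed genes was required for the class and region fits and not for the genotype fit. The outcome is not reported here, so it does not show how small a genotype difference could be found. DESeq2 1.42.0, other scalings, filters, gates, Leiden clusters (scanpy 1.11.5, leidenalg 0.10.2), left-out libraries and a replicate block were tried as alternatives. Named genes were the stalk proteins, Rpsa, paralog pairs, Rpl5, Rpl11, Rps6, Rps19, Rpl38, Rpl24, the 3 called genes highest and the 3 lowest relative to the RP median in each class or region comparison, and the 2 genes of each list with the highest mean level. Genes outside it (Rrn3, Eef2, and Rpl9, Rpl35, Rps4x, Rpl10 and Rpl39l between libraries or genotypes) were named after their values were seen. Some genes that this rule names are not reported here. The RP genes and the lists were chosen with earlier results of these data known. No order of levels between genes is read.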

Additional observations from a re-analysis of the deposited data

How the results depend on the processing

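The fall of 77 RP genes in neuron-like cells, and those in the telencephalon and floor plate groups, kept their direction, with counts within 1.5 times, under every alternative run. In neuroblast-like cells the count of RP genes that rose was 1 with RLE scaling or no filter on low counts, 3 with library totals, 8 with a stricter gate, 0 with cluster classes and 1 to 5 with 1 library left out (5 as reported). The count that fell was 22 with library totals, 36 without the filter, 63 with cluster classes and 5 to 15 with 1 library left out, the 5 without Apcdd1+/- replicate 2 (13 as reported). In mesenchyme-like cells library totals gave 25 rises and 2 falls. In epithelium-like cells 1 RP gene rose with DESeq2 and 3 with library totals or a stricter gate, and the falls numbered 59 without the filter, 19 with a stricter gate and 14 to 42 with 1 library left out, the 14 without Apcdd1+/- replicate 2. In the midbrain group 3 rose and 1 fell with library totals, 9 rose without the filter, and with 1 library left out 1 to 20 rose and 0 to 1 fell. The cause of these shifts was not tested.

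Between genotypes, leaving out Apcdd1+/- replicate 1 gave 2 RP genes in epithelium-like cells and leaving out Apcdd1+/- replicate 2 gave 1; over the libraries left out the range was 0 to 2, and 0 elsewhere. With the replicate block, 0 RP genes were called in all cells and in each class, the smallest adjusted p being 0.062 by edgeR, in epithelium-like cells. Genes of any kind called with the block numbered 5 in all cells and 0 to 13 by class, against 0 without it. Deviations of same-numbered libraries correlated at 0.18 in all cells and 0.04 to 0.13 by class, with only 2 pairs, so the libraries share a number and no pairing was assumed. An alternative that adds RP genes the symbol rule misses to the share is not reported here. For the RP share, cluster classes gave 18.5% in neuroblast- and 16.1% in neuron-like cells, and the mean of per-cell shares gave 18.3% in the floor plate group. With cluster classes, an alternative added after the data were seen, 12 translation factors and other TOP genes fell in neuroblast-like cells.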
